A study of Bos taurus with 27 samples.

Results

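The 5 genes described here are abundant transcripts of the day-15 cattle (Bos taurus) embryo that are steady or lower in larger embryos. They are ENSBTAG00000026199, which the selection rule names as beta-actin, ENSBTAG00000014534, which it names as elongation factor 1 alpha, and ENSBTAG00000006189, ENSBTAG00000013162 and ENSBTAG00000001601, for which no name was at hand. The 5 were chosen by their mean level of 4000 to 9000 CPM (the gene's count as a share of the library total, in counts per 1000000) and by how they follow embryo size, out of 19994 gene identifiers. Size slopes and differences between size classes are therefore given as descriptions, with no test. In all, 9 genes have a mean in that range, and 4 of them are not among the 5. The nearest gene above the range averaged 11801 CPM (ENSBTAG00000001517) and the nearest below it 3931 CPM (ENSBTAG00000002939).

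Each of the 27 libraries is 1 embryo collected on day 15 of pregnancy. The dams ate a diet high in either omega-3 or omega-6 fatty acids, which gives 16 omega-3 embryos (6 long, 10 short) and 11 omega-6 embryos, all short. The titles give a size number from 0.4 to 20.3, whose unit is not stated, and a letter m (15 embryos) or f (12), taken to mean male or female. Long embryos have size numbers of 10.5 to 20.3, short omega-3 embryos 0.4 to 9.5 and short omega-6 embryos 1.4 to 7.7. The labels name neither dams nor batches, so a p-value reflects only how far these embryos vary.

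Before it attaches, the ruminant embryo lengthens from a sphere to a filament, chiefly by growth of its outer layer, the trophectoderm. Genes such as beta-actin and elongation factor 1 alpha are commonly used as references. The level of a gene of interest is divided by the level of a reference gene, on the assumption that the reference is the same in every sample. Beta-actin is the subunit of actin filaments in non-muscle cells, which give a cell its shape and its contractile and adherent cortex. Elongation factor 1 alpha brings aminoacyl-tRNA to the ribosome during protein synthesis. Both belong to families with near-identical copies elsewhere in mammalian genomes, and how reads shared by such copies were counted is not stated, so the share of their counts that comes from each copy is uncertain.

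Library totals ran from 17931620 to 29868584 counts (median 24349563). Every member had at least 77554 counts in every library, so counting error on a single value was at most 0.359%, far below the differences described here. An earlier analysis of these data found the omega-6 embryos 22 and 25 to stand apart from the rest. Their TMM factors (trimmed mean of M-values, a scaling that takes most genes as unchanged) were 0.773 and 0.888, against a median of 1.02, so their members' levels are higher after TMM than by library total. Values without these embryos are given beside the correlations, CVs and diet differences. The counts of calls with a member as reference were not computed without them. The 10 most counted genes took 10.6% of counts in the smallest embryo against 18.1% in the largest, and a rise of some genes lowers the share of all others. ENSBTAG00000006189, beta-actin and ENSBTAG00000013162 rank 7, 8 and 9 by mean CPM and are themselves among these 10. The 5 members together took 3.71% and 2.70% of counts in the same embryos. A whole embryo is a mixture of cell types, so fewer cells of a type and less RNA per cell cannot be told apart.

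Beta-actin was at much the same level in small and large embryos. Its CPM ran from 6867 to 8192 in long omega-3 embryos (median 7769), from 6702 to 8985 in short omega-3 embryos (median 7918) and from 6613 to 9215 in short omega-6 embryos (median 7676). The 3 groups overlapped throughout: of the 10 short omega-3 embryos 3 lay above every long embryo and 3 below, and of the 11 short omega-6 embryos 4 lay above and 3 below. Group means were 7643 ± 457 (SD, n = 6), 7778 ± 840 (n = 10) and 7766 ± 868 CPM (n = 11), differences that are smaller than the SD of any group. The smallest embryo held 8164 CPM and the largest 6867 CPM.

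Elongation factor 1 alpha was lower in larger embryos, with wide overlap. Long embryos held 3816 to 4782 CPM (median 4445), short omega-3 embryos 4039 to 6156 (median 4760) and short omega-6 embryos 3849 to 6135 (median 5345). No short embryo lay below every long embryo, and 5 of 10 short omega-3 and 8 of 11 short omega-6 embryos lay above every long embryo. Group means were 4374 ± 352 (SD, n = 6), 4939 ± 657 (n = 10) and 5202 ± 715 CPM (n = 11). The highest value of all belonged to the smallest embryo, at 6156 CPM, and the largest embryo held 4498 CPM. Embryo 22 held the lowest value among omega-6 embryos, at 3849 CPM.

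By library total, ENSBTAG00000006189 separated long from short embryos most fully. Its CPM ran from 7049 to 7962 in long embryos (median 7618), from 7726 to 10876 in short omega-3 (median 8643) and from 7985 to 10235 in short omega-6 embryos (median 8895). All 11 short omega-6 embryos and 8 of the 10 short omega-3 embryos lay above every long embryo. After TMM the highest long embryo was at 8066 CPM and the lowest short omega-6 embryo at 7777, so these groups then overlapped. The share of all genes that separate in this way is not given. Means were 7563 ± 425 (SD, n = 6), 8970 ± 1164 (n = 10) and 9168 ± 885 CPM (n = 11). The mean of long embryos was 0.843 times that of short omega-3 and 0.825 times that of short omega-6 embryos.

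ENSBTAG00000001601 had a like order of groups. It measured 3433 to 3989 CPM in long embryos (median 3627), 3846 to 5169 in short omega-3 (median 4115) and 3733 to 5120 in short omega-6 embryos (median 4437). Of the short embryos 7 of 10 on omega-3 and 10 of 11 on omega-6 lay above every long embryo by library total. The overlap was wider after TMM. The highest long embryo was then at 4041 CPM, against medians of 4081 in short omega-3 and 4375 in short omega-6 embryos. Means were 3664 ± 239 (SD, n = 6), 4278 ± 446 (n = 10) and 4507 ± 485 CPM (n = 11). The highest omega-6 value was that of embryo 22, the embryo with the lowest omega-6 value of elongation factor 1 alpha.

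ENSBTAG00000013162 was the most variable of the 5 within groups. Long embryos held 4415 to 6194 CPM (median 4872), short omega-3 embryos 4456 to 8042 (median 6232) and short omega-6 embryos 4993 to 7698 (median 6450). Above every long embryo lay 5 of 10 short omega-3 and 7 of 11 short omega-6 embryos, and none lay below. Means were 5079 ± 639 (SD, n = 6), 6080 ± 1153 (n = 10) and 6422 ± 959 CPM (n = 11). For all 4 genes other than beta-actin the order of means was long omega-3, short omega-3, short omega-6 from low to high, and the neighbouring means of the 2 short groups differed by less than the SD of either group.

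**Figure D1:**
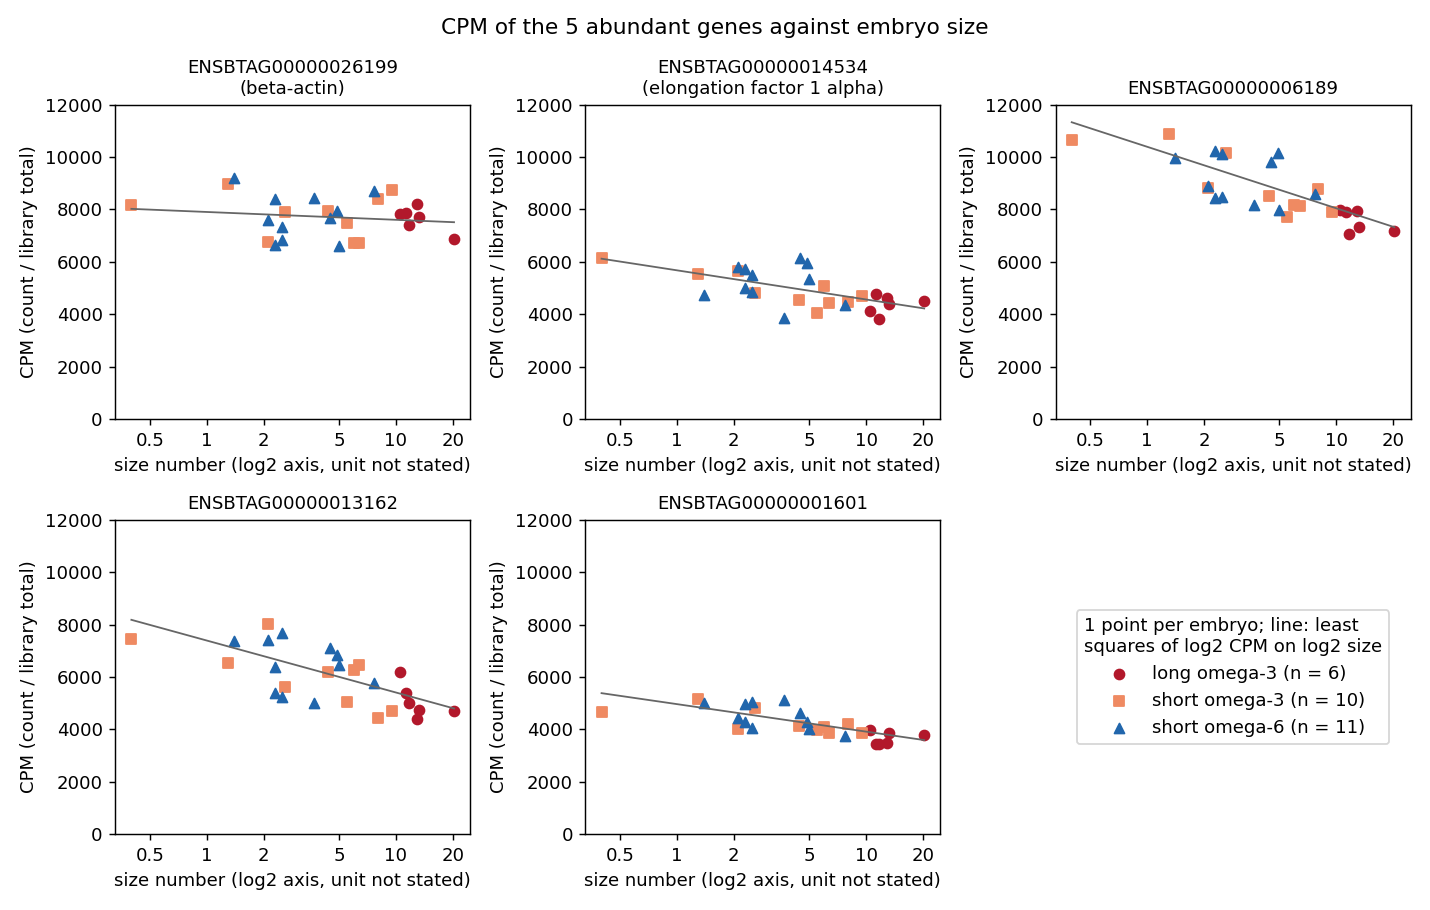
CPM of each gene (share of the library total, linear axis from 0) against the size number (log2 axis), with 1 point per embryo, groups by colour and shape, and a least squares line of log2 CPM on log2 size. The line of beta-actin is nearly level, with the smallest embryo at 8164 CPM and the largest at 6867 CPM, while the other 4 lines decline.

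How each gene followed size was measured as a slope, the change in log2 level for each doubling of the size number, from an edgeR model that also held diet and sex letter, after TMM scaling. Beta-actin had a slope of 0.00041 ± 0.034 (SE, n = 27). Elongation factor 1 alpha had -0.068 ± 0.023, ENSBTAG00000006189 -0.088 ± 0.026, ENSBTAG00000013162 -0.11 ± 0.033 and ENSBTAG00000001601 -0.075 ± 0.031. Per doubling, elongation factor 1 alpha fell by 4.58%, ENSBTAG00000006189 fell by 5.94%, ENSBTAG00000013162 fell by 7.19% and ENSBTAG00000001601 fell by 5.10%. Over the 5.67 doublings between the smallest and the largest embryo they add up to levels 1.30, 1.41, 1.53 and 1.35 times lower, and the line of beta-actin to a ratio of 1.002.

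Such slopes are not steep among the genes of these embryos. Of the 11919 genes tested, 55.8% had a slope steeper in size than that of elongation factor 1 alpha and 37.5% than that of ENSBTAG00000013162, while 99.8% were steeper than beta-actin. The median slope of all tested genes was 0.0023, which the scaling holds near 0. Among the 120 genes with a mean of at least 1000 CPM, 79 had a negative slope, and their median was -0.051. The edgeR test called 28.9% of all tested genes on size (adjusted p below 0.05), which was 18.04% without embryo 14, the smallest, and 39.6% without embryos 22 and 25. Of the members 3 were among those called, and nothing is read from this count because size chose them.

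The direction of the 4 falling slopes held in the alternatives that did not scale libraries to a member. Each was negative in all 12 alternatives, which changed the scaling, the tool, the filter, the terms or the embryos, with a range of -0.087 to -0.030 for elongation factor 1 alpha, -0.11 to -0.057 for ENSBTAG00000006189, -0.13 to -0.068 for ENSBTAG00000013162 and -0.14 to -0.064 for ENSBTAG00000001601. The alternatives refit counts of the embryos that chose the genes, so a shared sign is no separate support. The slope of beta-actin lay between -0.018 (library total) and 0.016 (without embryos 22 and 25) and was negative in 5 of the 12. With the 10 most counted genes left out of the library total, beta-actin had 0.0049 and elongation factor 1 alpha -0.065. ENSBTAG00000006189, ENSBTAG00000013162 and ENSBTAG00000001601 then had -0.084, -0.10 and -0.072. With ENSBTAG00000006189 as reference, slopes were 0.018 for elongation factor 1 alpha, 0.015 for ENSBTAG00000001601 and -0.021 for ENSBTAG00000013162. Such slopes are relative to a gene that falls. In the 11 omega-6 embryos alone, which span fewer sizes, SEs were 0.10 to 0.13 and each of the 5 slopes but that of ENSBTAG00000001601 (-0.14 ± 0.12) was smaller than its SE.

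**Figure D2:**
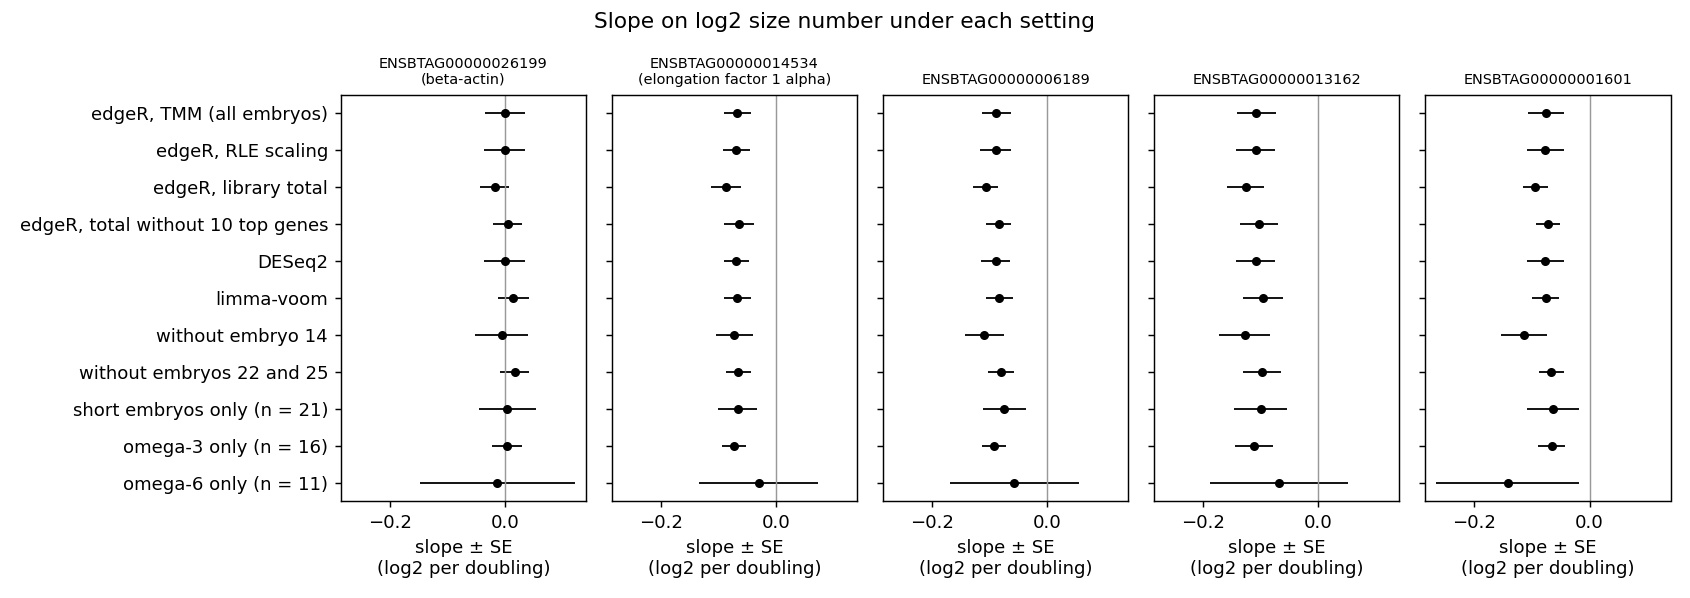
Slope on log2 size number (log2 change per doubling, point) with its SE (bar) for each gene under 11 of the settings, over all 27 embryos unless stated. Beta-actin sits at 0 within its SE in all 11, and the other 4 genes lie below 0 in all 11, with the widest bars in the 11 omega-6 embryos alone.

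As a plain relation over 27 embryos, log2 CPM of beta-actin had Pearson r = -0.15 and Spearman rho = -0.097 with log2 size. The values were r = -0.60 and rho = -0.64 for elongation factor 1 alpha, -0.79 and -0.81 for ENSBTAG00000006189, -0.66 and -0.71 for ENSBTAG00000013162, and -0.74 and -0.81 for ENSBTAG00000001601. No p is given, since this relation chose the genes. Leaving out the 2 embryos of most extreme size against the median gave r of -0.016, -0.53, -0.74, -0.62 and -0.79 in the same order, and leaving out embryos 22 and 25 gave -0.052, -0.70, -0.79, -0.66 and -0.75. Within the 16 omega-3 embryos r was -0.22, -0.78, -0.89, -0.75 and -0.78, and among the 11 on omega-6 -0.029, -0.083, -0.29, -0.23 and -0.57. By library total, size took 2.25% of the variance of log2 CPM of beta-actin and 36.2% for elongation factor 1 alpha. It took 62.3% for ENSBTAG00000006189, 44.2% for ENSBTAG00000013162 and 54.8% for ENSBTAG00000001601. After TMM these shares were 0.10%, 34.6%, 45.4%, 38.4% and 28.8% in the same order. The r values over 27 embryos were then -0.032, -0.59, -0.67, -0.62 and -0.54. Without embryos 22 and 25 they were 0.16, -0.58, -0.67, -0.58 and -0.61 after TMM.

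Steadiness over all 27 embryos was described by the coefficient of variation (CV, the SD over the mean). By library total the CV was 9.81% for beta-actin, 12.4% for ENSBTAG00000001601, 12.7% for ENSBTAG00000006189, 13.97% for elongation factor 1 alpha and 18.005% for ENSBTAG00000013162. The median CV was 22.8% over all tested genes and 19.6% over the 120 with at least 1000 CPM, so each member was below both medians. In the same order they ranked 10, 14, 15, 25 and 54 among those 120 genes, counted from the steadiest. The highest value of a member was 1.39 (beta-actin) to 1.82 times (ENSBTAG00000013162) its lowest.

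The order of steadiness by TMM rested on embryos 22 and 25. Over all 27 embryos, after TMM, the CV of beta-actin was 14.2% and that of elongation factor 1 alpha 12.3%, the reverse of their order by library total, and beta-actin ranked 20 and elongation factor 1 alpha 11 among the 120. The change in beta-actin moved with embryos 22 and 25, which held 10906 and 10376 TMM-scaled CPM against at most 9061 in any other embryo. Without these embryos beta-actin was the steadiest of the 5 by both scalings, with a CV of 10.1% after TMM and 9.30% by library total. The TMM values of ENSBTAG00000006189, elongation factor 1 alpha and ENSBTAG00000013162 were then 11.9%, 12.7% and 16.8%. For ENSBTAG00000001601 the TMM value was 16.5% with these embryos and 10.7% without them, and embryo 22 again held the most, 6621 CPM against 5660 in embryo 25 and at most 5002 in any other. By the rule used to set a yardstick, the steadiest genes of at least 1000 CPM were ENSBTAG00000015000 (mean 1337 CPM, CV 5.72%), ENSBTAG00000015114 (3156 CPM, 7.29%) and ENSBTAG00000006045 (2018 CPM, 7.62%), with slopes of -0.0052, 0.017 and 0.023. After TMM their CVs were 8.42%, 9.26% and 7.55%, below those of all 5 members. They were picked for the smallest CV in these same embryos, so their lower CVs follow largely from that choice.

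**Figure D3:**
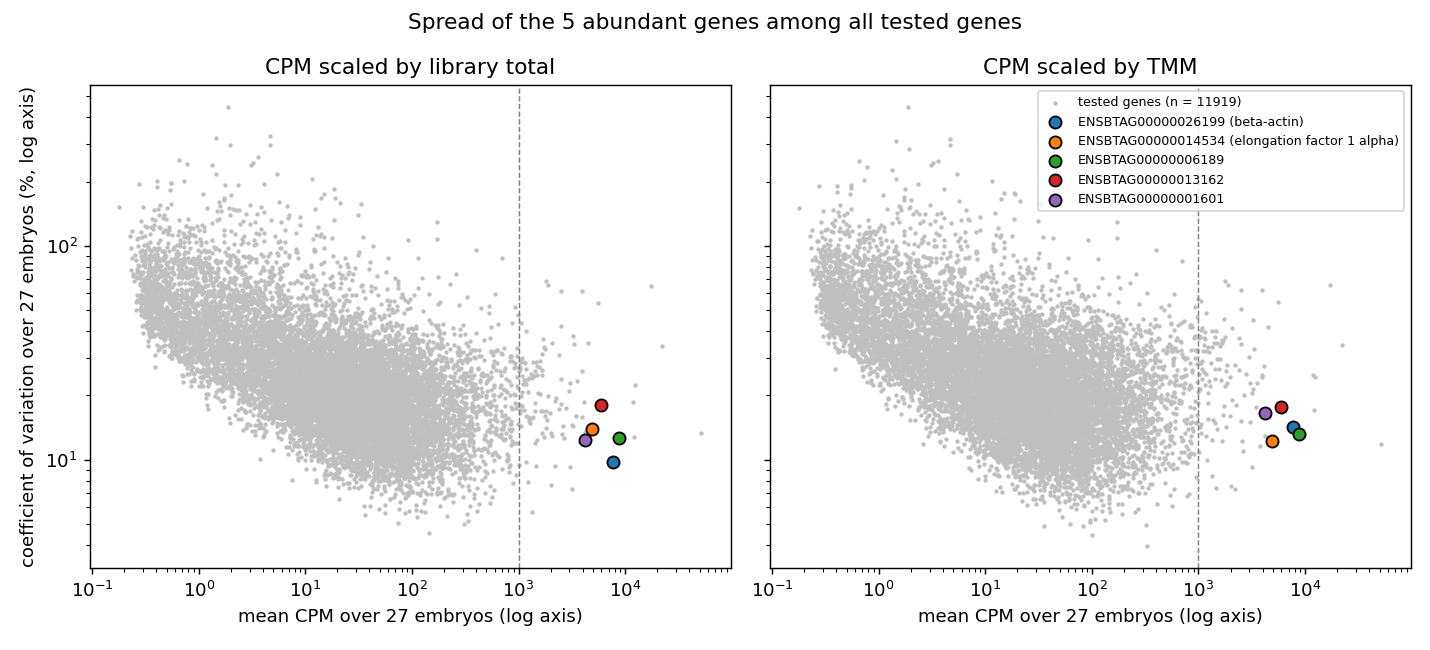
Coefficient of variation over 27 embryos (%, log axis) against mean CPM by library total (log axis) for 11919 tested genes (grey) and the 5 members (coloured), with spread from CPM scaled by library total on the left and by TMM on the right; the dashed line marks 1000 CPM. Beta-actin is the lowest of the 5 on the left (9.81%) and elongation factor 1 alpha on the right (12.3%).

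Ratios between members within a library need no scaling. Their slopes on size are differences between the slopes that chose the genes, so they restate the same contrast and do not add to it. The count of beta-actin relative to each of the other 4 was higher in larger embryos, with r of the log2 ratio on log2 size of 0.39 for elongation factor 1 alpha, 0.67 for ENSBTAG00000006189, 0.50 for ENSBTAG00000013162 and 0.59 for ENSBTAG00000001601 (n = 27, no test for the reason above). Without embryos 22 and 25 these were 0.54, 0.75, 0.53 and 0.61, and without the 2 extreme sizes 0.39, 0.68, 0.49 and 0.72. The ratio of beta-actin to ENSBTAG00000006189 was 0.766 in the smallest embryo, against 0.957 in the largest. The 6 ratios among the falling genes had r between -0.18 and 0.25.

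**Figure D4:**
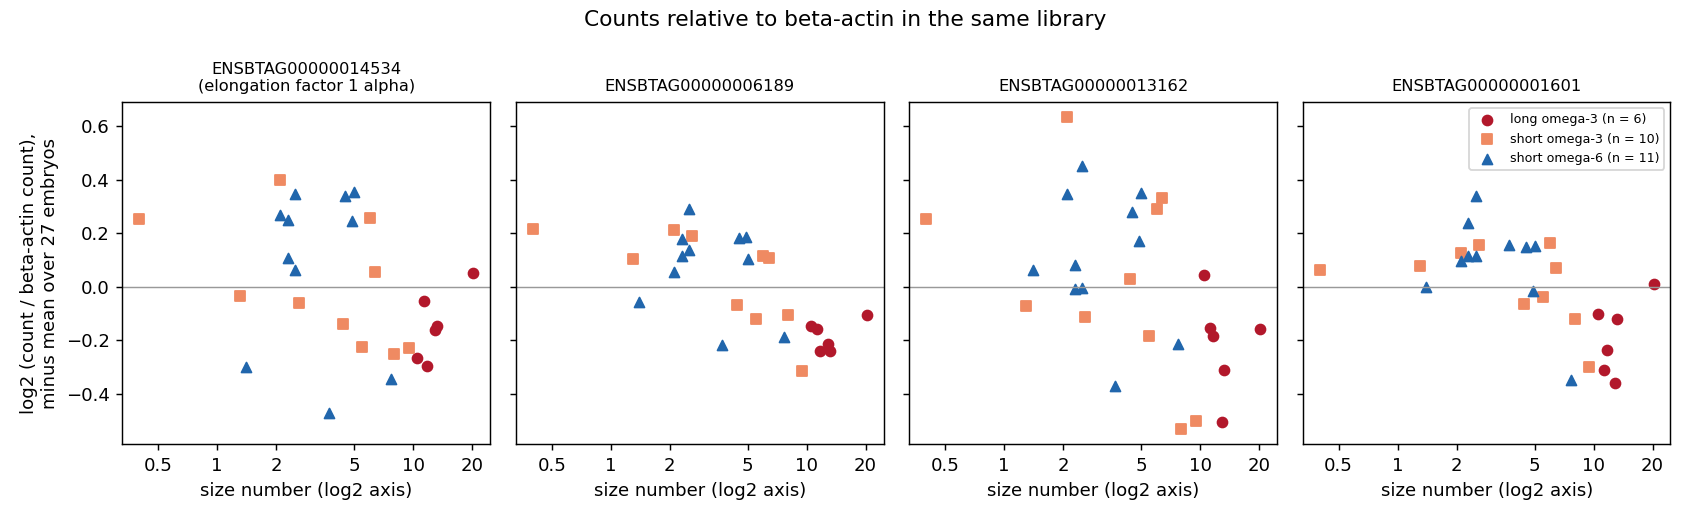
Log2 of the count of each of 4 genes over the beta-actin count of the same library, minus its mean over 27 embryos, against the size number (log2 axis), with 1 point per embryo and groups by colour and shape. For ENSBTAG00000006189 all 6 long embryos lie below 0, and for the other 3 genes most long embryos lie below 0.

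The steadiest pair was formed by ENSBTAG00000006189 and ENSBTAG00000001601, whose log2 ratio had an SD of 0.11. Their ratio ran from 1.60, in embryo 22, to 2.37, and without embryos 22 and 25 the lowest was 1.90. Least steady were beta-actin and ENSBTAG00000013162, with an SD of 0.31 and a 2.24-fold range of the ratio. The geNorm measure M, the mean SD of a gene's log2 ratios with the other candidates (lower is steadier), was 0.16 for ENSBTAG00000006189, 0.18 for ENSBTAG00000001601, 0.21 for elongation factor 1 alpha, and 0.23 for both beta-actin and ENSBTAG00000013162. By this measure beta-actin, the gene with the flattest slope, was among the last. M favours genes that move together, and 4 of the 5 candidates were chosen with a falling slope. Whether this set the order was not tested. The log2 ratios of beta-actin to elongation factor 1 alpha and ENSBTAG00000006189 had SDs of 0.26 and 0.18, and 0.24 and 0.13 with size taken out. Those to ENSBTAG00000013162 and ENSBTAG00000001601 had 0.31 and 0.19, and 0.27 and 0.15 with size taken out.

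Correlations between members are given as descriptions, since the genes were chosen on a shared relation to size and share the library total as denominator. Over 27 embryos the 6 pairs of falling genes had Pearson r of log2 CPM from 0.38 (elongation factor 1 alpha with ENSBTAG00000001601, rho = 0.50) to 0.80 (ENSBTAG00000006189 with ENSBTAG00000001601, rho = 0.82). With log2 size taken out, the same pairs had r of -0.12 and 0.52. The other 4 pairs of falling genes had r of 0.032 to 0.39 once size was taken out. Beta-actin had r of -0.082 with elongation factor 1 alpha, -0.072 with ENSBTAG00000013162, 0.34 with ENSBTAG00000001601 and 0.40 with ENSBTAG00000006189. In the same order these were 0.00045, -0.15, 0.21 and 0.38 without embryos 22 and 25. On the TMM scale over 27 embryos they were 0.069, 0.095, 0.60 and 0.56. Without embryos 22 and 25 elongation factor 1 alpha and ENSBTAG00000001601 had r = 0.60, and 0.16 with size taken out. Within omega-6 embryos their r was -0.16 (n = 11) and within omega-3 embryos 0.59 (n = 16).

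The genes most like each member were outside the 5. The highest r of many genes is set here beside few members, so a closer gene outside the 5 was likely in advance. It says nothing of how alike the members are. Likeness was Pearson r of log2 CPM over the 27 embryos among 1728 tested genes with at least 100 CPM, and the 2 highest are named for each member. They were ENSBTAG00000011184 (r = 0.69) and ENSBTAG00000010545 (0.65) for beta-actin, and ENSBTAG00000012976 (0.85) and ENSBTAG00000010012 (0.78) for elongation factor 1 alpha. For ENSBTAG00000006189 they were ENSBTAG00000006969 (0.89) and ENSBTAG00000013526 (0.87), for ENSBTAG00000013162 ENSBTAG00000040006 (0.82) and ENSBTAG00000021260 (0.82), and for ENSBTAG00000001601 ENSBTAG00000012094 (0.92) and ENSBTAG00000015663 (0.91). The nearest member to ENSBTAG00000006189, ENSBTAG00000001601, ranked 28 of these genes, and the nearest member to beta-actin ranked 51. In the range of 4000 to 9000 CPM the gene outside the 5 with the most similar figures was ENSBTAG00000004258, at 4217 CPM with a CV of 13.5% and a slope of -0.11 ± 0.020 (SE). It was singled out after its values were seen.

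Diet did not choose the genes and could be tested, with the embryo as the unit. The dams ate the diets, and the labels do not name dams. If embryos share a dam, the intervals may be too narrow and the p-values too low. At equal size, omega-3 against omega-6, no member passed and 0% of all 11919 genes were called (edgeR, 1415 genes at an unadjusted p below 0.05, or 574 without embryo 14 and 527 without embryos 22 and 25; DESeq2 and limma-voom also called 0). Elongation factor 1 alpha was at 0.902 times the omega-6 level in omega-3 embryos (log2 difference -0.15 ± 0.061, SE, 95% interval of the ratio 0.827 to 0.984, adjusted p = 0.414). ENSBTAG00000001601 was at 0.895 times (0.798 to 1.004, adjusted p = 0.42), ENSBTAG00000013162 at 0.912 (0.807 to 1.03, adjusted p = 0.498), ENSBTAG00000006189 at 0.928 (0.844 to 1.02, adjusted p = 0.469) and beta-actin at 0.954 (0.840 to 1.08, adjusted p = 0.719). Intervals are for single genes and are not widened for the number tested, so that of elongation factor 1 alpha leaves out 1 without a call. For beta-actin the direction turned by library total (log2 difference 0.011), with limma-voom (0.019) and without embryos 22 and 25 (0.035). For ENSBTAG00000001601 the log2 difference of -0.16 was -0.083 by library total, -0.075 with limma-voom and -0.061 without embryos 22 and 25. Without these embryos it was -0.17 for elongation factor 1 alpha, -0.071 for ENSBTAG00000006189 and -0.11 for ENSBTAG00000013162, and by library total -0.092, -0.041 and -0.069. With limma-voom these were -0.20, -0.096 and -0.16, against -0.15, -0.11 and -0.13 by edgeR with TMM.

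Within short embryos, 10 on omega-3 and 11 on omega-6, the picture was alike. The edgeR test called 0% of genes (1059 at an unadjusted p below 0.05, or 252 without embryos 22 and 25; DESeq2 and limma-voom called 0), and the members' ratios ran from 0.900 for ENSBTAG00000001601 to 0.952 for beta-actin (adjusted p = 0.527 to 0.72). Elongation factor 1 alpha was at 0.902 times (95% interval 0.815 to 0.999, adjusted p = 0.527). Without embryos 22 and 25 elongation factor 1 alpha had the lowest log2 difference, -0.16, and those of ENSBTAG00000001601 and beta-actin were -0.043 and 0.041. With limma-voom the log2 differences of elongation factor 1 alpha, ENSBTAG00000006189 and ENSBTAG00000013162 were -0.25, -0.11 and -0.21. By edgeR with TMM they were -0.15, -0.10 and -0.14. Those of ENSBTAG00000001601 and beta-actin were -0.081 and 0.029 with limma-voom. The 2 comparisons share the 10 short omega-3 and the 11 omega-6 embryos and are not independent of each other.

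Whether slopes differed between diets was tested in the 21 short embryos, where sizes overlap. The edgeR test called 0% of 11534 genes (505 at an unadjusted p below 0.05; DESeq2 and limma-voom called 1 each). No member passed, with differences in slope (omega-3 minus omega-6) from -0.053 ± 0.083 (SE) for elongation factor 1 alpha to 0.081 ± 0.11 for ENSBTAG00000001601 (adjusted p = 0.847 to 0.974). The SEs, 0.083 to 0.12, were near the size of the slopes themselves, so a fall of the same size in 1 diet only was not detectable.

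Embryos lettered m and f did not differ detectably in these genes. Elongation factor 1 alpha was 1.09 times higher in m (95% interval 0.991 to 1.19, adjusted p = 1 by edgeR), at 5029 ± 699 CPM (SD, n = 15) against 4784 ± 677 (n = 12). Beta-actin measured 7694 ± 737 and 7805 ± 816 CPM with a ratio of 1.004 (0.889 to 1.13), and the other 3 ratios lay between 0.976 and 1.03. Of all genes 0.386% (46 genes) were called by sex letter, and no member was. The letter of embryo 07, an f, was in doubt in an earlier analysis of these data. Without it the ratio of elongation factor 1 alpha was unchanged in direction (log2 difference 0.13 ± 0.068, SE), 71 genes were called, and no member passed. Without embryos 22 and 25 the count was 86.

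Scaling every library to a member and repeating the size fit over all genes shows its slope as a tilt between rising and falling calls. Scaling to a gene that falls moves the slopes of all genes up by about the same amount. The direction of the tilt and the shift of the median slope therefore follow from the slopes that chose the members. The tilt restates those slopes and is no separate evidence of a gene's worth as a reference. The total number of calls does not follow from the slope alone. It was 2286 with beta-actin, whose slope was 0.00041, against 3450 with TMM, and the cause was not tested. With TMM, 1698 genes rose and 1752 fell with size (1090 and 1053 without embryo 14, and 2345 and 2361 without embryos 22 and 25). With beta-actin as reference 1057 rose and 1229 fell, and 61.8% of the genes rising by TMM and 66.9% of those falling were called in the same direction. With elongation factor 1 alpha 3270 rose and 572 fell. All 1698 genes rising by TMM were still called as rising, 32.6% of the falling genes were still called, and 1572 genes that TMM did not call were added as rising.

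The counts for the other 3 falling genes are given as the same description. ENSBTAG00000006189 gave 4053 rising and 520 falling genes, ENSBTAG00000013162 4025 and 411, and ENSBTAG00000001601 3097 and 621. The share of calls that rose was 49.2% with TMM, 46.2% with beta-actin, 85.1% with elongation factor 1 alpha, 88.6%, 90.7% and 83.3%. Scaling to ENSBTAG00000013162 moved the median slope of all genes by the most, from 0.0023 to 0.11 per doubling. The library total itself tilted the calls the other way, with 1303 rising and 2582 falling (33.5% rising).

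With the geometric mean of all 5 as reference, 4 of them chosen as falling, 3217 genes rose and 699 fell (82.2% rising), and 39.9% of the genes falling by TMM were still called. Pairs were tried after these values had been seen. The 4 pairs with beta-actin gave between 66.0% (with ENSBTAG00000001601) and 75.5% rising calls (with ENSBTAG00000013162), and the 6 pairs without it between 84.0% and 90.2%. The pair of beta-actin and elongation factor 1 alpha had the smallest SD of any single gene or pair on the TMM scale, 0.14 log2 units, with a slope of -0.044. These counts compare references with TMM, which itself takes rises and falls to balance, and sequence counts give shares of RNA rather than amounts per embryo or per cell.

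**Figure D5:**
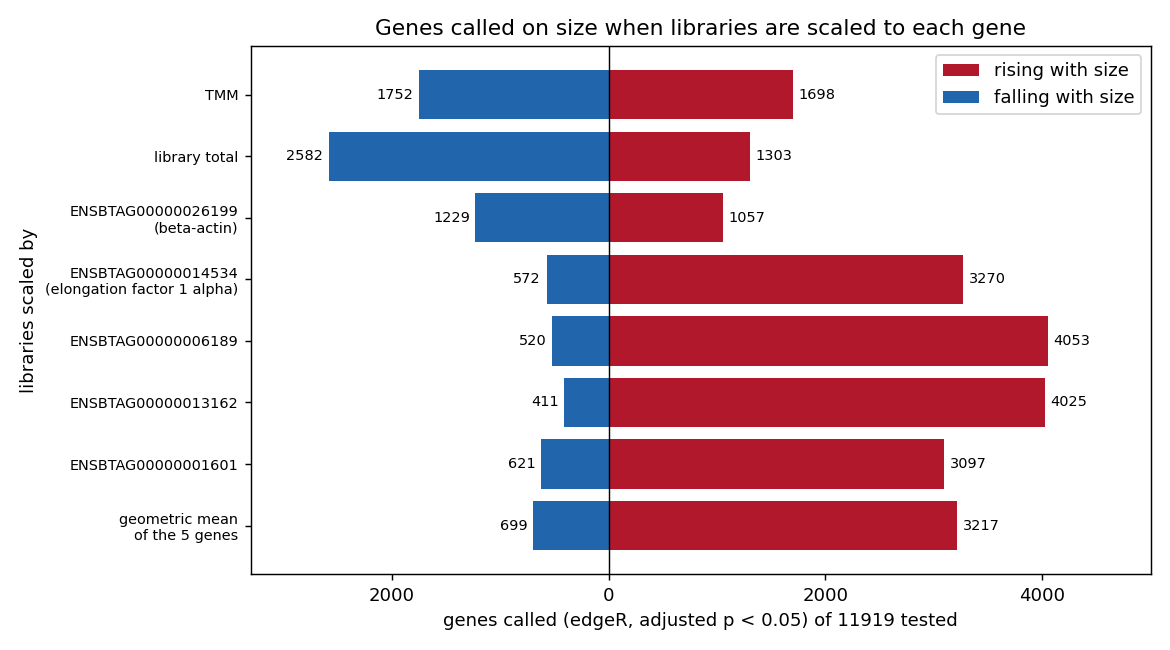
Number of genes called on size by edgeR (adjusted p below 0.05, of 11919 tested), rising to the right and falling to the left, with libraries scaled by TMM, by the library total, by each member or by the geometric mean of the 5. TMM (1698 and 1752) and beta-actin (1057 and 1229) give near balance, and the 4 falling genes give mostly rising calls. For the members this follows from the slopes that chose them.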

How the data were processed

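The deposited values are the authors' raw read counts per Ensembl gene identifier, 1 file per embryo. Libraries were stranded, polyA-selected and read as single reads, per the labels' protocols. STAR and featureCounts stand without versions in the submitters' processing notes. For build, annotation and strand setting, the value is not given in the sources used here. The RefSeq gene table used (assembly ARS-UCD2.0) matched 0 of 19994 identifiers, so planned gene and marker lists were not run, embryo cell types were not checked, and no sequence is printed. No 2 libraries were copies (chi-square per degree of freedom at least 13.6 in 351 pairs).

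Tests used edgeR 4.0.16 (R 4.3.3) on the deposited counts: filterByExpr on group (minimum count 10, total 15, proportion 0.7), TMM, and two-sided quasi-likelihood tests with Benjamini-Hochberg adjustment over all genes (threshold 0.05). The model for size, and for diet at equal size, held diet, sex letter and log2 size number. For diet among short embryos and for sex letter it held group plus sex letter. The slope difference was the interaction of diet and log2 size in short embryos. SE is the log2 change over the square root of F. Scaling to a gene set its normalised count equal in all libraries. Alternatives used DESeq2 1.42.0 and limma 3.58.1 (voom with quality weights). The test was checked on simulated counts. The members, lists and tests were chosen with earlier results of these data known. Named genes were the 5 members, the 2 genes most like each, the 3 steadiest of at least 1000 CPM, and the range of 4000 to 9000 CPM with its nearest neighbours.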

Additional observations from a re-analysis of the deposited data

How the results depend on the processing

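The genes called on size numbered 2143 without embryo 14, the smallest, and 2286 with libraries scaled to ENSBTAG00000026199, against 3450, and the cause was not tested. Genes called by sex letter numbered 46, against 78 with DESeq2, 126 with limma-voom, 86 without embryos 22 and 25 and 71 without embryo 07. Against 0 calls, 1 gene was called without the low-count filter for diet among short embryos. For the slope difference between diets 1 gene was called without that filter, 1 with DESeq2 and 1 with limma-voom. For diet, sex letter and the slope difference, no member was called under any alternative run.

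In the 11 omega-6 embryos alone the slopes were -0.030 for ENSBTAG00000014534, -0.057 for ENSBTAG00000006189, -0.068 for ENSBTAG00000013162 and -0.14 for ENSBTAG00000001601. Over both diets the slope of ENSBTAG00000001601 was -0.075, and -0.11 without embryo 14, an omega-3 embryo. Fewer samples enter the fits that leave embryos out. The other 55 of 60 slope alternatives moved by at most 1 SE. For ENSBTAG00000026199 (beta-actin), uncalled throughout, signs turned by library total, with limma-voom and without embryos 22 and 25: 0.011, 0.019 and 0.035 for diet at equal size, 0.0051, 0.029 and 0.041 for diet among short embryos, and -0.015, -0.076 and -0.11 for the slope difference. For sex letter they were -0.019 by library total and -0.013 without embryos 22 and 25. After TMM the CVs of ENSBTAG00000026199 and ENSBTAG00000001601 were 14.2% and 16.5%, and the latter was 10.7% without embryos 22 and 25, an alternative chosen after seeing the data, as were the pairs of references. M moved by at most its own error, taken as M over the square root of 2(n - 1), under the 2 alternatives tried. Depth limits none of the members' values. No paired analysis was possible because embryo numbers do not repeat across groups.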
